A study of Mus musculus with 8 samples.

Results

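The cytochrome P450 genes were described in the fat of wild-type mice and of mice labelled as double knockouts of the microRNA miR-181. They were taken as all genes of the expression table whose symbol is Cyp followed by digits, a letter and digits. This gave 39 of 16505 genes. The sterol demethylase Cyp51 was left out of the 39 and is described among the related enzymes, and Cyp2ab1 fell outside the rule because 2 letters follow its first digit. Of the 39 genes, 25 averaged 0 or more in log2 CPM across the 8 libraries and were tested (CPM are read counts scaled to a common library size, and 0 on the log2 scale is 1 CPM). The other 14 lay under that limit and are described by their values. Cyp4f41-ps is a pseudogene.

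The tissue was epididymal white adipose tissue, the fat pad beside the epididymis of male mice. There were 4 libraries of wild-type (WT) C57BL/6 mice and 4 of miR-181 double-knockout C57BL/6 mice, and both groups had eaten a high fat diet for 12 weeks. The diet is therefore shared by the controls. The labels do not say which miR-181 genes were deleted, whether the animals were littermates, how old they were, or whether a library holds tissue of 1 mouse or of a pool. Separate animals are not stated, so the p-values weigh the groups against a spread that may be technical. No row of the table measures a miR-181 transcript, so the deletion was not checked here.

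Cytochrome P450 enzymes bind heme and insert 1 atom of oxygen into their substrate. Most sit in the endoplasmic reticulum, where cytochrome P450 oxidoreductase passes them electrons, and a few sit in mitochondria, where ferredoxin does so. Families 1 to 3 are best known in liver for the clearance of drugs and foreign chemicals, family 4 for the hydroxylation of fatty acids, and the higher numbered families for single steps of steroid, bile acid, vitamin D and retinoic acid metabolism. In fat, several of them act on fatty acids, retinoids and oxysterols.

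Read totals ran from 3736881 to 76838584 per library, and the smallest library was knockout 1. Ribosomal RNA took over 1% of reads in WT 1, WT 3, WT 4 and knockout 1 (the higher class) and less in WT 2 and knockout 2, 3 and 4 (the lower class). In each class, 1 of the groups is a single library. Genes of the epididymis took 1.60%, 2.78% and 1.20% of reads in WT 2, knockout 2 and knockout 4, and at most 0.00527% in the other 5. The tissue label held on its markers: 16 adipocyte markers took 1.79% to 2.82% of reads in WT and 3.40% to 5.19% in knockout libraries, and 12 of the 16 were higher in the knockout. Macrophage markers took 1.30% to 1.64% of reads in WT and 0.178% to 0.284% in knockout libraries, and 15 of 16 were lower. All 10 endothelial markers were higher. Because these are whole pieces of tissue, fewer cells of a type and less RNA per cell cannot be told apart.

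Mouse miR-181 comes in 4 mature forms that pair with target messages through a shared seed, bases 2 to 8 (in capitals). They are printed 5′ to 3′ from RefSeq, GRCm38.p6, because a miR-181 double knockout separates the groups by label. The labels do not say which of these forms were lost. Their shared seed defines the sites examined in the P450 messages. The a and b forms are each encoded on chromosomes 1 and 2, and the c and d forms on chromosome 8.
miR-181a-5p: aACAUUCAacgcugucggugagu
miR-181b-5p: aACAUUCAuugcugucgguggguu
miR-181c-5p: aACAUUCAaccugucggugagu
miR-181d-5p: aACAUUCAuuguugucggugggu

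The site that pairs with this seed, TGAATGT, was looked for on the message strand of the longest annotated 3′ untranslated region of each gene (GENCODE M21). Of the 37 P450 genes with such a region, 6 held at least 1 site. Among the 25 tested P450 genes the share was 5 of 25 (20%), beside 2552 of 13241 tested genes (19.3%). Cyp2b23, Cyp2j13, Cyp46a1, Cyp4b1 and Cyp7b1 each held 1 site. Cyp2b23 lay under the limit and was not tested, and the others did not pass the test described below. Cyp1b1 held 4 sites in a region of 3140 bases, and it was the P450 gene that fell. Its sites, shown because no other P450 gene held more than 1, start at bases 1350, 1977, 2153 and 2385 of that region (capitals mark the match, GRCm38, minus strand).
Cyp1b1 site 1, chr17:79708725-79708754: aataaaggccaTGAATGTtctgggtgttca
Cyp1b1 site 2, chr17:79708098-79708127: aatttgaggcaTGAATGTttagacaaaagg
Cyp1b1 site 3, chr17:79707922-79707951: acagaacccctTGAATGTgatacgcaggtt
Cyp1b1 site 4, chr17:79707690-79707719: cggatgttttgTGAATGTaggggtcatttt
At least 4 sites were found in 48 of the 13241 genes (0.363%). Of those 48 genes, 7 rose and 5 fell, and their median change was -0.04 on the log2 scale. A match of letters does not show that a site is used.

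Most P450 genes did not pass the test between knockout and WT, and those that passed were mainly higher in the knockout. In the test by limma over 13797 genes, at an adjusted p of 0.05, 8 of the 25 tested P450 genes passed (32%), beside 38.8% of all tested genes. Cyp2e1, Cyp2f2, Cyp4f17, Cyp2d22, Cyp2j9, Cyp2j6 and Cyp27a1 rose (28% of 25, beside 22.7% of all tested genes), and Cyp1b1 fell (4%, beside 16.1%). The share called and the share that rose are near the background. The share that fell is below it, but rests on 1 gene, and these counts were not tested against other genes. The median log2 change of the 25 was 0.53, beside 0.18 for all tested genes, and 16 of the 25 lay above 0. The 4 WT and 4 knockout values did not overlap for 10 of the 25 (40%, beside 37.4%), of which 9 were higher. The 7 to 1 split depends on scaling: with each library centred on its median gene it was 6 to 2, while all tested genes went from 3137 higher and 2216 lower to 2444 and 2825.

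**Figure D1:**
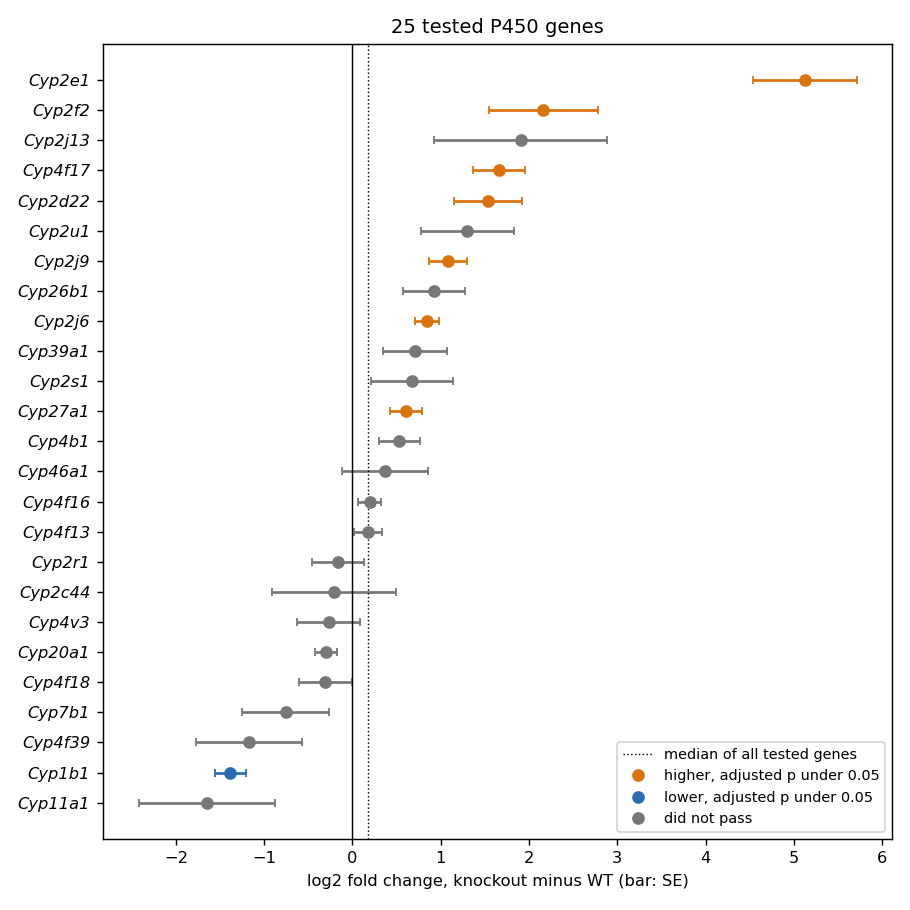
Log2 difference between knockout and WT (4 libraries each) for the 25 tested P450 genes, with the standard error from limma as bars, in order of the difference. Cyp2e1 stands at 5.12, the other tested genes lie between -1.65 and 2.16, and the dotted line marks the median of all tested genes, 0.18.

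By role, 3 of the 4 tested family 2 enzymes of drugs and small molecules rose, with a median log2 change of 1.85. Of the 5 tested family 2 enzymes of fatty acids and bile acids, 2 rose and none fell (median 1.08). Of the 7 tested family 4 genes, 1 rose and none fell (median 0.17). Of the 5 tested steroid and sterol enzymes, 1 rose and none fell (median 0.37). Neither of the 2 tested genes of vitamins A and D passed (median 0.38), nor did Cyp20a1, whose substrate is unassigned. The single tested gene of the family linked to the aryl hydrocarbon receptor, Cyp1b1, fell.

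Cyp2e1 changed most among the P450 genes. Its enzyme oxidises ethanol, acetone and other small molecules and is abundant in liver. Its level was 5.40, 4.48, 5.77 and 5.54 log2 CPM in WT 1 to 4 and 9.32, 9.25, 11.41 and 11.70 in knockout 1 to 4. Every knockout library lay above every WT library, and knockout 3 and 4 lay above knockout 1 and 2. The means were 5.30 ± 0.56 and 10.42 ± 1.32 (SD, n = 4 each), a log2 difference of 5.12 ± 0.59 (SE, adjusted p = 0.000259 by limma) or 34.8-fold. Only 3 of the 13797 tested genes had a larger log2 rise. The difference was 3.75 in the higher ribosomal RNA class and 6.30 in the lower one. Without knockout 3 and 4 it was 3.99. Markers of hepatocytes, a cell type rich in Cyp2e1, were near 0: the 10 with a row made up 0.000698% to 0.00186% of WT and 0.00153% to 0.00296% of knockout reads, and albumin (Alb) gave 0 reads in WT 1 and at most 717 in any library. Of the 3 tested, Alb was higher in the knockout with no overlap (4.44 ± 0.80, adjusted p = 0.00253), as Cyp2e1 was, while the plasma proteins Ahsg (-2.24 ± 0.44, adjusted p = 0.00412) and Hpx (-2.06 ± 0.51, adjusted p = 0.0118) were lower with no overlap. Their part in the Cyp2e1 difference was not tested.

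This single gene altered the P450 reads of the tissue. All 39 genes together took between 0.0522% and 0.0600% of reads in the WT libraries and 0.117%, 0.110%, 0.331% and 0.390% in knockout 1 to 4. Cyp2e1 gave 8.07%, 3.89%, 9.05% and 7.93% of the P450 reads in WT 1 to 4, and 54.7%, 55.3%, 82.0% and 85.2% in knockout 1 to 4. Without Cyp2e1 the remaining 38 genes took 0.0480% to 0.0551% of reads in WT and 0.0529%, 0.0491%, 0.0597% and 0.0579% in knockout libraries, so these ranges overlapped. The 95% Wilson intervals of the family shares reached at most 0.00351 percentage points from the value, and those of the Cyp2e1 share at most 1.48 points. Intervals here cover counting error only.

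**Figure D2:**
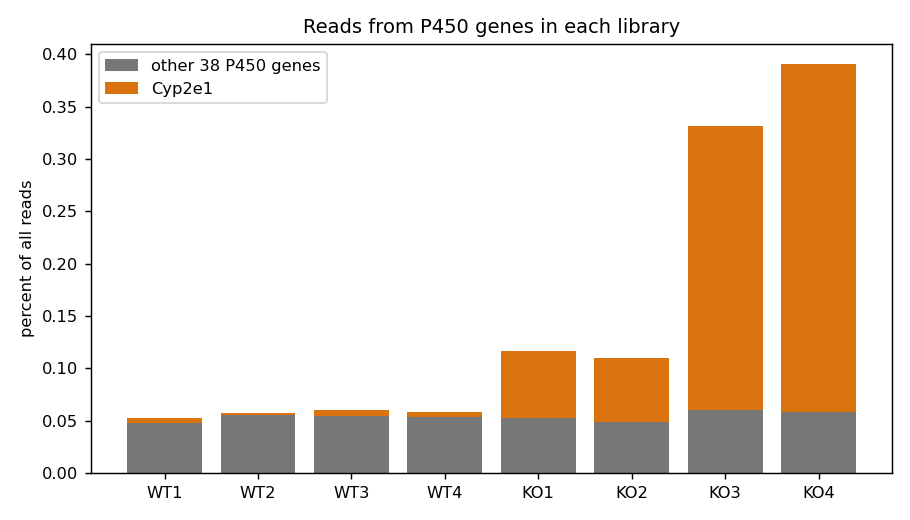
Share of all reads, in percent, that came from the 39 P450 genes in each of the 8 libraries, split into Cyp2e1 and the other 38 genes. The WT bars end between 0.0522% and 0.0600%, and the knockout bars between 0.110% and 0.390%, with Cyp2e1 as the largest piece in all 4 knockout libraries.

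The order of the P450 genes changed with it. Levels of different genes were compared per length, as CPM per kilobase of exon in GENCODE M21 (RPKM). In WT libraries the highest was Cyp1b1 at 30.6 ± 2.95 RPKM (SD, n = 4), and Cyp4v3 at 29.2 ± 3.56 RPKM did not differ from it beyond that spread. Cyp2e1 at 19.1 ± 6.31, Cyp4b1 at 19.0 ± 0.92 and Cyp27a1 at 18.3 ± 1.92 RPKM followed, within each other's spread. In knockout libraries Cyp2e1 stood first at 844 ± 652 RPKM. Cyp4b1 at 28.8 ± 10.3, Cyp27a1 at 28.7 ± 8.30 and Cyp4v3 at 27.3 ± 15.1 RPKM came next and lay within each other's spread. Cyp2d22 at 16.2 ± 10.2 RPKM was the fifth, and Cyp1b1 at 11.9 ± 2.71 RPKM was the sixth.

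The first 250 bases before the start of Cyp2e1 are printed below with those before Cyp1b1, since these genes moved most clearly in opposite directions. Both come from RefSeq (GRCm38.p6), read 5′ to 3′ on the strand of the gene. Capitals mark matches on either strand to 4 short motifs. The TATA box was searched as TATAAA, which places the start of many genes. The CCAAT box was searched by its own letters. The GC box was searched as GGGCGG, where Sp1 binds. The core element that the aryl hydrocarbon receptor binds was searched as GCGTG.
Cyp2e1, chr7:140763569-140763818, plus strand: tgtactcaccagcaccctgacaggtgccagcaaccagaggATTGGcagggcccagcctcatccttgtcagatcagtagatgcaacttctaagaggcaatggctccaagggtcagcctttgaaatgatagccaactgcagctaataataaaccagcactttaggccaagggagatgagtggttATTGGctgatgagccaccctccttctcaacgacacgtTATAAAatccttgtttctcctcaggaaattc
Cyp1b1, chr17:79715062-79715311, minus strand: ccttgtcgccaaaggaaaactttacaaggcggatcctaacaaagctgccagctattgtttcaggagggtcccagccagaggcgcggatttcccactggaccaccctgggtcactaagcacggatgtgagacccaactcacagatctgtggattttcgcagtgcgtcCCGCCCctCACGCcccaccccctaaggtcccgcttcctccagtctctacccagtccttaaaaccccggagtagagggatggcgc
The Cyp2e1 window held a TATA box 31 bases before the start and CCAAT boxes 68 and 210 bases before it. It had 48.8% G and C and 2 CpG dinucleotides. The Cyp1b1 window held a receptor core 76 bases and a GC box 84 bases before the start, with 58% G and C and 12 CpG dinucleotides. Over all 27025 promoter windows of that length the medians were 52% and 6, and 13.0% held a TATA box, 34.5% a CCAAT box, 32.9% a GC box and 28.2% a receptor core. Of the 29 P450 genes with a window, 6 held a TATA box, 12 a CCAAT box, 14 a GC box and 10 a receptor core. The matches in the printed windows do not overlap each other. A match of letters is not a bound site, and its part in these levels was not tested.

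Cyp1b1 was the P450 gene that fell. It is an estrogen, retinoid and fatty acid hydroxylase outside the liver and a target of the aryl hydrocarbon receptor. Its level was 7.26, 7.51, 7.54 and 7.59 log2 CPM in WT 1 to 4 and 6.07, 5.59, 6.35 and 6.36 in knockout 1 to 4. The groups did not overlap, and WT varied little. The difference was -1.38 ± 0.17 (SE, adjusted p = 0.000405), 2.61-fold lower. It was -1.39 in the higher and -1.41 in the lower ribosomal RNA class, and lay between -1.64 and -1.22 under the 22 alternatives tried, all with the call kept. Cyp1b1 fell from between 29.4% and 32.9% of the P450 reads in WT to 5.75%, 4.39%, 2.45% and 2.10% in knockout 1 to 4 (largest distance of a Wilson bound 1.97 points). These shares overstate its own fall, because Cyp2e1 gave 54.7%, 55.3%, 82.0% and 85.2% of the P450 reads in knockout 1 to 4. Of all reads, Cyp1b1 took 153 to 192 CPM in WT and 67.2, 48.3, 81.3 and 82.0 CPM in knockout 1 to 4. Macrophage markers fell in the same libraries, as given above. Of 12 markers of fibroblasts and progenitors, 4 fell, 2 rose and 6 did not pass (median log2 change -0.36). The part of these cell types in the Cyp1b1 difference was not tested. Cyp1a1, the other family member and the best known target of the receptor, lay under the limit, with values from -3.55 to -1.78 in WT and from -3.76 to 0.46 in knockout libraries.

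The receptor itself, Ahr, stood at 3.82 ± 0.14 and 3.98 ± 0.31 log2 CPM (SD, n = 4 each), a difference of 0.16 ± 0.18 that did not pass (adjusted p = 0.502). Its repressor Ahrr, named here after its values were seen, was 1.28 ± 0.34 lower (adjusted p = 0.0165), with WT at 1.49, 0.94, 1.19 and 0.97 and knockout libraries at 0.27, -0.42, -0.25 and -0.14. That call was lost in 4 of the alternatives, among them the fit that takes the ribosomal RNA class into account (-1.08, adjusted p = 0.0609) and the fit without the 3 libraries over 1% epididymis reads (-1.21, adjusted p = 0.112).

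**Figure D3:**
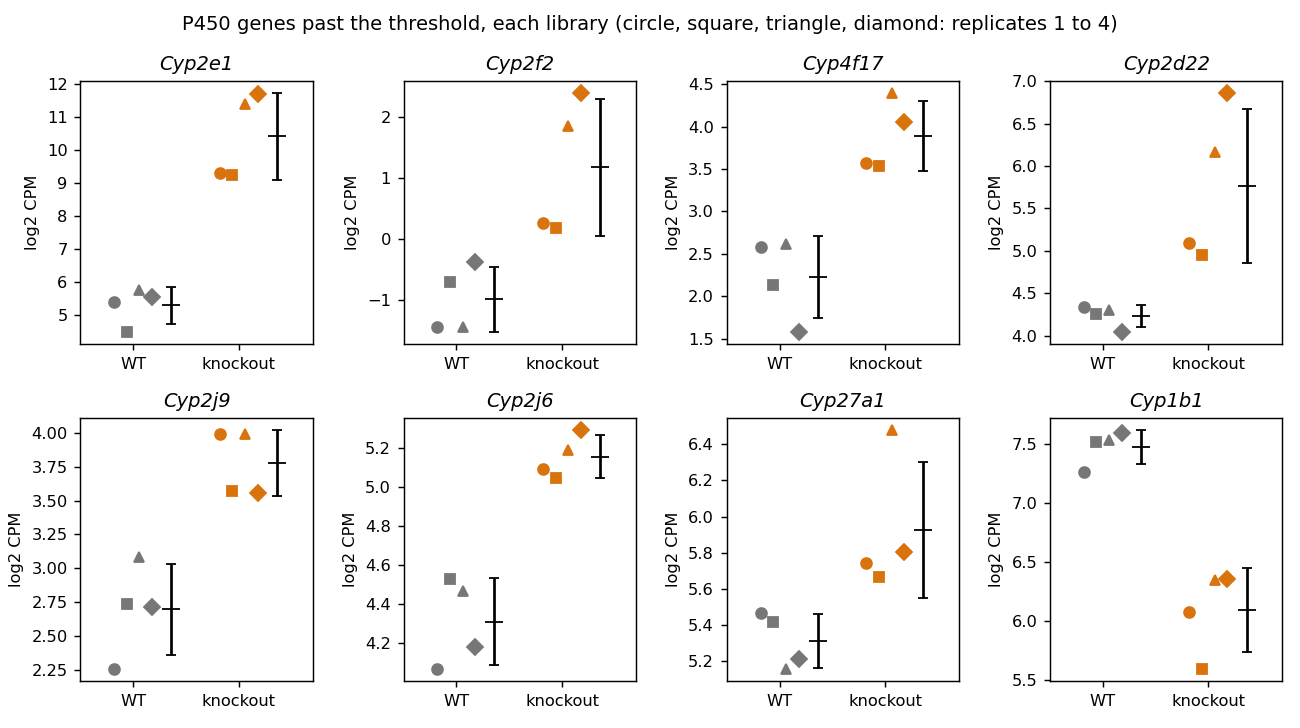
Log2 CPM of the 8 P450 genes that passed the test, 1 panel per gene, with a point for each library and, beside them, the group mean with its SD (n = 4). The WT and knockout points do not overlap in any panel. Knockout 3 and 4 lie above knockout 1 and 2 in every panel but that of Cyp2j9, also in Cyp1b1, which fell.

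Among the other family 2 enzymes of drugs and small molecules, Cyp2d22 and Cyp2f2 rose and Cyp2s1 did not pass. Cyp2d22, a relative of the human drug enzyme CYP2D6, was at 4.34, 4.26, 4.30 and 4.04 log2 CPM in WT 1 to 4 and at 5.09, 4.95, 6.17 and 6.86 in knockout 1 to 4. WT varied little, and knockout 3 and 4 were the highest libraries. The difference was 1.54 ± 0.38 (adjusted p = 0.0123). It was 0.87 in the higher and 1.74 in the lower ribosomal RNA class, and 0.79 without knockout 3 and 4 (adjusted p = 0.00678).

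Cyp2f2, an enzyme of lung airway cells that activates naphthalene, was near the limit of detection. Its level was -1.44, -0.70, -1.44 and -0.38 log2 CPM in WT 1 to 4, from 1, 9, 2 and 4 reads, and 0.27, 0.17, 1.86 and 2.39 in knockout 1 to 4, from 4, 86, 131 and 106 reads. The groups did not overlap, and the difference was 2.16 ± 0.61 (adjusted p = 0.0213). The call held in 12 of 21 alternatives. It was lost without WT 1 (adjusted p = 0.0532), WT 3 (0.0520), knockout 3 (0.0664) or knockout 4 (0.0704), each left out in turn. Without both knockout 3 and 4 the difference was 1.21 (adjusted p = 0.247).

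Cyp2s1, an enzyme of epithelia, was at 0.88, 2.29, 2.71 and 2.92 in WT 1 to 4 and at 2.77, 2.15, 3.30 and 3.27 in knockout 1 to 4. WT 1 alone was low, the groups overlapped, and the difference of 0.67 ± 0.46 did not pass (adjusted p = 0.274). Cyp2b10, Cyp2b23, Cyp2d9 and Cyp2d26 of this group lay under the limit.

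Of the family 2 enzymes of fatty acids and bile acids, Cyp2j6 and Cyp2j9 rose. They are next to each other on chromosome 4 in RefSeq's gene order, with Cyp2j11 and Cyp2j13 nearby. Cyp2j6 stood at 4.07, 4.53, 4.47 and 4.18 log2 CPM in WT 1 to 4 and at 5.09, 5.05, 5.19 and 5.30 in knockout 1 to 4. All 4 knockout libraries were alike, and the difference was 0.84 ± 0.14 (adjusted p = 0.00141). Cyp2j9 stood at 2.26, 2.73, 3.08 and 2.71 in WT 1 to 4 and at 3.99, 3.57, 3.99 and 3.56 in knockout 1 to 4, a difference of 1.08 ± 0.22 (adjusted p = 0.00418). The differences were 0.85 and 0.65 for Cyp2j6, and 1.31 and 0.97 for Cyp2j9, in the higher and the lower ribosomal RNA class.

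Their neighbour Cyp2j13 did not pass. It was at -0.71, 2.19, -2.18 and -1.97 in WT 1 to 4 and at -0.09, 2.38, 1.72 and 0.96 in knockout 1 to 4, a difference of 1.91 ± 0.98 (adjusted p = 0.151). WT 2 alone stood among the knockout values, and without it the difference was 2.86 (adjusted p = 0.0163). As WT 2 is the library that lay the other way, that smaller p does not stand as a separate test. WT 2 was also the only WT library with over 1% epididymis reads. Among the 3 libraries with such reads the Cyp2j13 difference was -0.53, and among the other 5 it was 2.43. The part of epididymis reads in it was not tested. The fatty acid hydroxylase Cyp2u1 stood at -1.44, 0.78, 0.88 and -0.09 in WT 1 to 4 and at 1.35, 1.16, 1.35 and 1.47 in knockout 1 to 4. Its groups did not overlap, but the difference of 1.30 ± 0.53 did not pass (adjusted p = 0.0777). Cyp2c44, an epoxygenase that the reference names Cyp2c23, ranged from -0.22 to 1.91 in WT and from -1.05 to 1.74 in knockout libraries, with a difference of -0.21 ± 0.70 (adjusted p = 0.8287).

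Family 4 held 1 gene that rose, Cyp4f17, which lies between Cyp4f39 and Cyp4f16 on chromosome 17. Most of the family are omega-hydroxylases of fatty acids and eicosanoids. Cyp4f17 stood at 2.59, 2.13, 2.61 and 1.58 log2 CPM in WT 1 to 4 and at 3.57, 3.53, 4.40 and 4.05 in knockout 1 to 4. The difference was 1.66 ± 0.29 (adjusted p = 0.00236), with 1.32 and 1.86 in the higher and the lower ribosomal RNA class. Its neighbours did not pass. Cyp4f16 stood at 3.63, 3.59, 3.65 and 3.67 in WT 1 to 4 and at 3.70, 3.74, 3.88 and 3.996 in knockout 1 to 4. Its groups did not overlap, though the difference was 0.19 ± 0.13 (adjusted p = 0.252). Cyp4f39, needed for the very long acyl chains of the skin barrier, stood at 1.83, 1.32, 0.88 and 1.49 in WT 1 to 4 and at 1.01, 0.93, 0.53 and -1.65 in knockout 1 to 4, a difference of -1.17 ± 0.60 (adjusted p = 0.149). Knockout 4 alone was below 0. Cyp4f13, in the same cluster, differed by 0.17 ± 0.16 (adjusted p = 0.413).

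The most abundant family 4 genes, Cyp4b1 and Cyp4v3, split the knockout libraries in opposite ways. Cyp4b1 was at 5.32, 5.46, 5.44 and 5.47 log2 CPM in WT 1 to 4 and at 5.44, 5.53, 6.39 and 6.43 in knockout 1 to 4. Knockout 1 and 2 were at the WT level and knockout 3 and 4 above it, and the difference of 0.53 ± 0.23 did not pass (adjusted p = 0.0992). Without knockout 1 it was 0.70 (adjusted p = 0.0280). Cyp4v3, a fatty acid omega-hydroxylase, was at 6.63, 6.66, 6.97 and 6.91 in WT 1 to 4 and at 7.45, 6.99, 6.09 and 5.56 in knockout 1 to 4. Here knockout 1 and 2 were above every WT library and knockout 3 and 4 below, so the difference of -0.27 ± 0.36 (adjusted p = 0.573) is a mean of unlike values, and without knockout 3 and 4 it was 0.42. Cyp4f18, an enzyme of white blood cells that hydroxylates leukotriene B4, was at 3.45, 3.16, 3.23 and 3.36 in WT 1 to 4 and at 3.73, 3.12, 2.94 and 2.19 in knockout 1 to 4 (-0.31 ± 0.30, adjusted p = 0.437).

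Of the steroid and sterol enzymes, Cyp27a1 rose. It is the mitochondrial sterol 27-hydroxylase of bile acid synthesis. Its level was 5.47, 5.42, 5.16 and 5.21 log2 CPM in WT 1 to 4 and 5.75, 5.67, 6.48 and 5.81 in knockout 1 to 4. Knockout 3 was the highest, and the difference was 0.61 ± 0.18 (adjusted p = 0.0260). The call was kept in 16 of 22 alternatives. It was lost with median centring (0.47, adjusted p = 0.0822), with the ribosomal RNA class in the fit (0.52, adjusted p = 0.0883), without WT 3 (0.56, adjusted p = 0.0690) and without WT 4 (0.58, adjusted p = 0.0726), among others. Without knockout 3 it was 0.43.

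Cyp7b1, the oxysterol 7-alpha-hydroxylase that acts after Cyp27a1, stood at 1.93, 2.13, 1.96 and 1.87 in WT 1 to 4 and at 0.27, 0.66, 1.22 and 2.71 in knockout 1 to 4. Knockout 1, 2 and 3 lay below every WT library and knockout 4 above them. The difference of -0.76 ± 0.49 did not pass (adjusted p = 0.243), and without knockout 4 it was -1.26 (adjusted p = 0.0185). Knockout 4 is the library that lay the other way, so that smaller p does not stand as a separate test. Cyp39a1, which hydroxylates 24-hydroxycholesterol, stood at 1.73, 2.86, 1.91 and 1.94 in WT 1 to 4 and at 1.96, 3.25, 2.75 and 3.31 in knockout 1 to 4 (0.71 ± 0.37, adjusted p = 0.153). Without knockout 1 the difference was 1.00 (adjusted p = 0.0323). Cyp46a1, which makes 24-hydroxycholesterol in the brain, differed by 0.37 ± 0.49 (adjusted p = 0.571).

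Cyp11a1, the side-chain cleavage enzyme that starts steroid synthesis, stood at 1.83, 1.16, 0.32 and 0.35 in WT 1 to 4 and at -2.90, -0.03, -0.63 and 0.63 in knockout 1 to 4. Knockout 1 had 0 reads, which in that library allows up to 0.803 CPM (3 reads). The difference of -1.65 ± 0.77 did not pass (adjusted p = 0.118). It passed with quantile normalization (-2.24, adjusted p = 0.0262) and when the fit took in the ribosomal RNA class (-2.45, adjusted p = 0.0341), and without knockout 1 it was -0.92 (adjusted p = 0.173). It was -3.74 in the higher ribosomal RNA class, where knockout 1 is the only knockout library and its value comes from the 0.5 read added, and -1.17 in the lower class. Markers of steroid-making cells took at most 0.00451% of reads in any library.

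Neither tested gene of vitamins A and D passed. Cyp26b1, which clears retinoic acid, stood at 0.88, 1.56, 0.99 and 1.73 log2 CPM in WT 1 to 4 and at 1.62, 2.07, 2.93 and 2.23 in knockout 1 to 4. The difference was 0.92 ± 0.35 (adjusted p = 0.0611), and 1.12 without knockout 1 (adjusted p = 0.0271). Cyp2r1, a vitamin D 25-hydroxylase, differed by -0.16 ± 0.30 (adjusted p = 0.682). Cyp20a1 stood at 4.77, 4.73, 4.54 and 4.52 in WT 1 to 4 and at 4.39, 4.32, 4.52 and 4.14 in knockout 1 to 4. Its difference of -0.30 ± 0.13 did not pass (adjusted p = 0.0897), and with median centring it was -0.44 (adjusted p = 0.0439).

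Of the 14 genes under the limit, 12 had 0 reads in at least 1 library, though some gave many reads in others, such as Cyp17a1 with 160 in WT 2 and 731 in knockout 2 and Cyp4f15 with 477 in knockout 2. They were Cyp1a1, Cyp2b10, Cyp2b23, Cyp2c70, Cyp2d9, Cyp2d26, Cyp2j11, Cyp4a12a, Cyp4a30b, Cyp4f15, Cyp4f41-ps, Cyp17a1, Cyp21a1 and Cyp26a1. Only 1 of the 14 had groups that did not overlap, beside 15% of all genes under the limit. This was Cyp2c70, which in mice makes muricholic bile acids. It gave 4, 16, 6 and 6 reads in WT 1 to 4, or 0.980, 1.04, 0.884 and 1.02 CPM, and 0, 36, 0 and 1 reads in knockout 1 to 4. The WT libraries agreed closely, while knockout 2 stood at 0.469 CPM. The 0 reads of knockout 3 allow up to 0.0826 CPM, but those of the small library knockout 1 allow up to 0.803 CPM, near the lowest WT value. In the fit over all 16505 genes, where 13.7% were called lower, it was lower with an adjusted p of 0.0209. That call was lost without WT 1 (adjusted p = 0.0533) or without WT 4 (adjusted p = 0.0561).

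**Figure D4:**
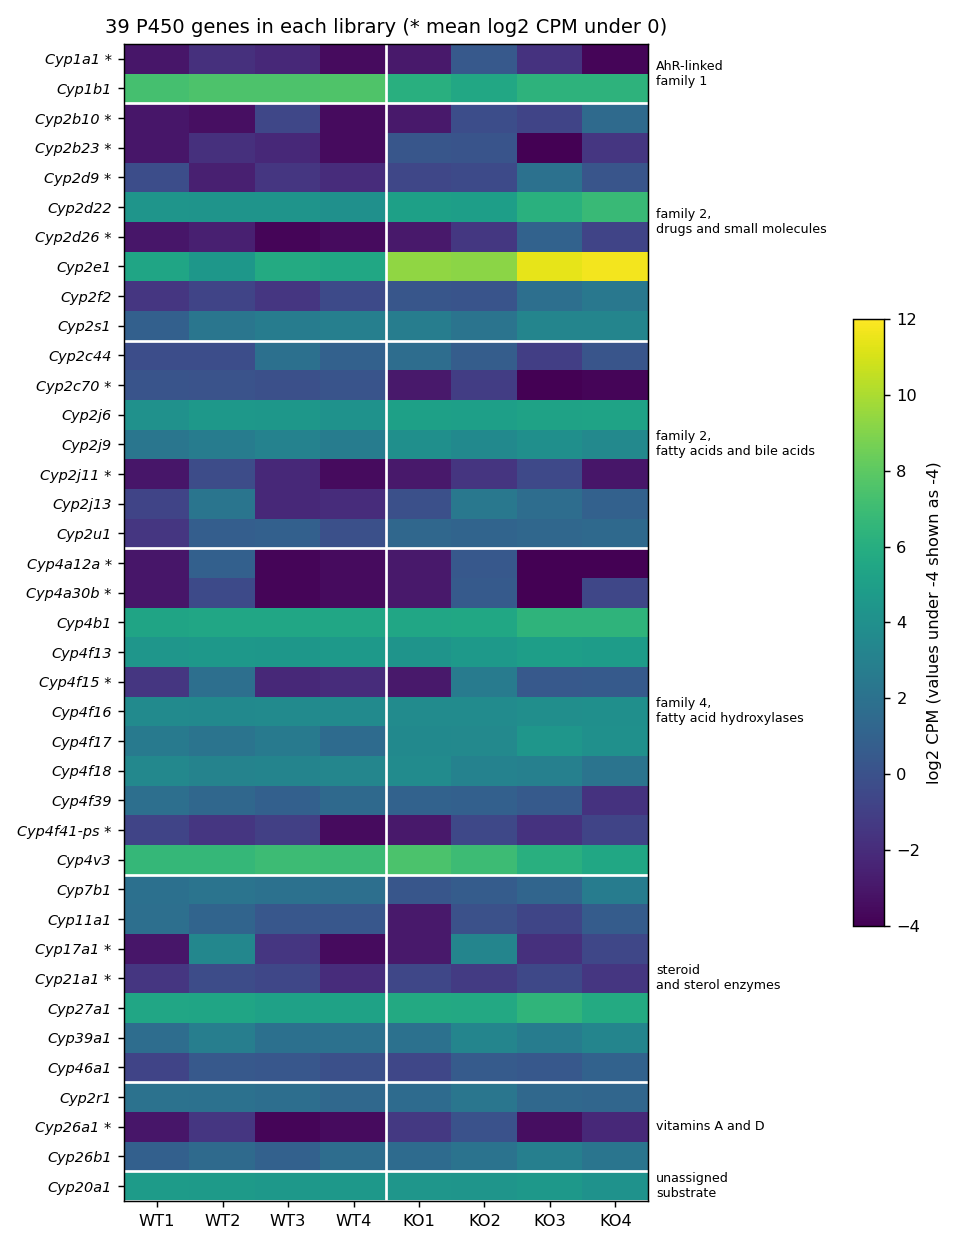
Log2 CPM of all 39 P450 genes in the 8 libraries as a heat map, with the genes grouped by role and those under the limit marked. Dark is low and yellow is high: Cyp2e1 goes from between 4.48 and 5.77 in the WT columns to the brightest cells of the map in the knockout columns, while Cyp1b1 goes from the brightest WT row to a darker shade.

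The libraries with epididymis reads were the highest for a few P450 genes, at shares near the background. In Cyp17a1, Cyp4a30b and Cyp4f15, 3 of the 14 genes under the limit, WT 2, knockout 2 and knockout 4 all lay above the other 5 libraries (beside 16.4% of all genes under the limit). The tested genes Cyp39a1 and Cyp46a1 did so as well, 2 of 25 (beside 7.75% of all tested genes). Cyp4f15 stood at 1.82, 2.64 and 0.54 log2 CPM in WT 2, knockout 2 and knockout 4 and at -2.90 to 0.45 in the others. Cyp17a1, the 17-alpha-hydroxylase of steroid synthesis, stood at 3.38 and 3.25 in WT 2 and knockout 2 and at -0.59 in knockout 4, while the others lay between -3.55 and -1.44. Cyp4a12a, an omega-hydroxylase that makes 20-HETE, had 28 reads in WT 2, 101 in knockout 2 and 0 in the other 6 libraries, knockout 4 with its epididymis reads among them. The part of epididymis reads in these levels was not tested.

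**Figure D5:**
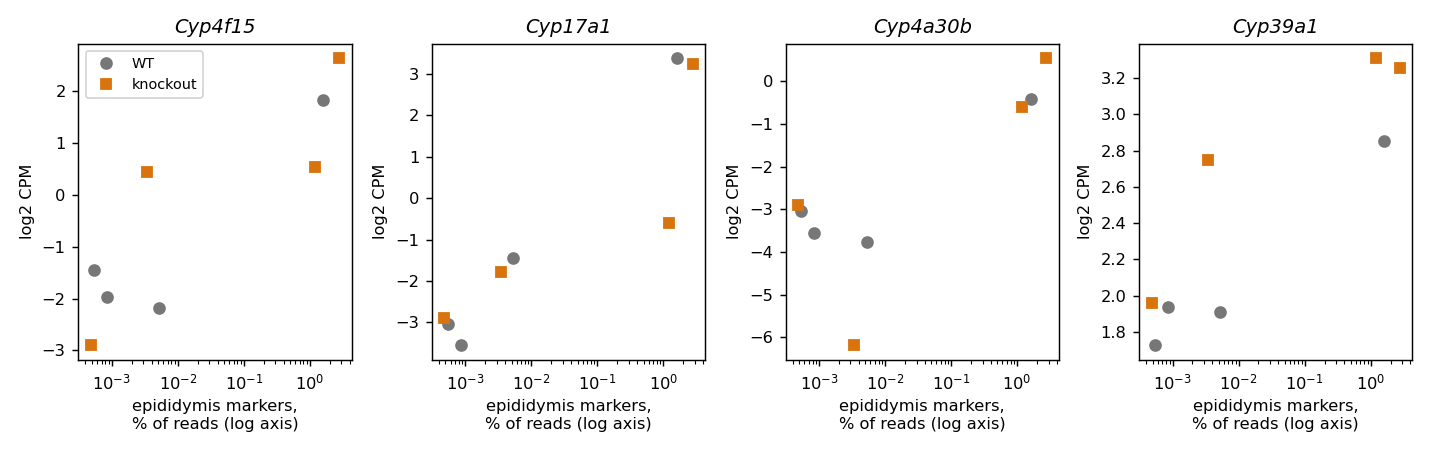
Log2 CPM of Cyp4f15, Cyp17a1, Cyp4a30b and Cyp39a1 against the percent of reads from epididymis markers (log axis), 1 point per library. WT 2, knockout 2 and knockout 4, with over 1% of such reads, lie above the other 5 libraries in each panel, and values of libraries with 0 reads come from the 0.5 read added before the logarithm.

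Knockout 3 and 4 stood apart from knockout 1 and 2 for many P450 genes. Both lay above the other knockout libraries in 14 of the 25 tested genes (beside 34.5% of all tested genes) and below them in 5, Cyp2c44, Cyp2r1, Cyp4f18, Cyp4f39 and Cyp4v3 (beside 18.1%). Among the 7 genes that rose, 6 had this order (beside 51.4% of all genes that rose), and Cyp2j9 was the exception. Markers of red blood cells made up 0.407% of knockout 3 and 1.20% of knockout 4, and between 0.0277% and 0.0827% of the other 6 libraries. The part of blood in these genes was not tested. Without knockout 3 and 4, 5 P450 genes were higher and 2 lower.

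Because adipocyte markers also rose, each P450 level was set against the mean log2 CPM of the 16 adipocyte markers in the same library. Measured so, Cyp2e1 was -2.72, -3.50, -3.07 and -2.40 in WT 1 to 4 and -0.85, -0.57, 0.93 and 1.61 in knockout 1 to 4. It was the 1 of 25 tested P450 genes that stayed higher in the knockout with no overlap, beside 27 of all 13797 tested genes (0.196%). The other 24 P450 genes either overlapped (8) or were lower with no overlap (16, beside 78.5% of all tested genes). The 16 markers were unlike in their log2 changes, from -0.08 for Lpl to 5.19 for Cfd, beside 5.12 for Cyp2e1. Cfd stood at 10.5, 10.1, 13.2 and 13.0 log2 CPM in knockout 1 to 4. The rise of Cyp2e1 thus exceeded the mean of the markers but not that of Cfd.

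The partners of P450 enzymes were taken from 8 lists of genes, and counts are read against the 22.7% of tested genes that rose and the 16.1% that fell. Of 14 electron donors and cytochrome b5 genes, 4 rose and 1 fell, with a median log2 change of 0.40. Por, the reductase that serves the microsomal enzymes, was at 7.24, 7.25, 7.26 and 7.25 log2 CPM in WT 1 to 4 and at 7.97, 7.71, 8.85 and 8.11 in knockout 1 to 4, a rise of 0.91 ± 0.21 (adjusted p = 0.00928). WT hardly varied, and knockout 3 was the highest. Cyb5a, cytochrome b5, rose by 0.73 ± 0.16 (adjusted p = 0.00638), and the cytochrome b5 reductase Cyb5r4 fell by 1.12 on the log2 scale (adjusted p = 0.000146). Of the mitochondrial donors, Fdx1 (ferredoxin) rose by 1.16 ± 0.33 (adjusted p = 0.0228) and Fdxr (its reductase) did not pass (-0.09 ± 0.22, adjusted p = 0.770). The Fdx1 call was lost in 8 alternatives, 5 of which left out WT 1, WT 3, WT 4, knockout 3 or knockout 4, and without both knockout 3 and 4 it was 0.59 (adjusted p = 0.157).

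In the heme list of 13 genes, 4 rose and 5 fell (median 0.16). Heme is the group that P450 enzymes carry. Hmox1, heme oxygenase and a gene of macrophages as well, fell by 3.07 on the log2 scale (adjusted p = 6.86e-05), the biliverdin reductase Blvra by 1.10 (adjusted p = 0.000257) and the second heme oxygenase Hmox2 by 0.60 (adjusted p = 0.00135). Alas1, the first enzyme of heme synthesis, fell by 0.57 (adjusted p = 0.00193). The genes that fell were those of breakdown and this first step. The 4 that rose, named here after their values were seen, were later enzymes of synthesis. They were Alad (1.65, adjusted p = 0.00900), Urod (0.95, adjusted p = 0.0157), Fech (0.79, adjusted p = 0.0302) and Uros (0.68, adjusted p = 0.00675). The calls of Alad, Urod and Fech were lost without knockout 3 and 4.

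Of 3 P450 enzymes with other names, thromboxane synthase Tbxas1 fell and prostacyclin synthase Ptgis rose. Tbxas1, also found in macrophages, stood at 7.01, 6.92, 6.66 and 6.99 in WT 1 to 4 and at 5.08, 4.63, 4.33 and 3.96 in knockout 1 to 4 (-2.40 ± 0.22, adjusted p = 8.46e-05). Ptgis stood at 3.60, 4.18, 4.49 and 4.50 in WT 1 to 4 and at 5.07, 4.59, 5.20 and 5.57 in knockout 1 to 4 (0.91 ± 0.25, adjusted p = 0.0199). Its call was lost without knockout 3 (0.88, adjusted p = 0.0525) and without both knockout 3 and 4 (0.64, adjusted p = 0.148). Cyp51, of cholesterol synthesis, did not pass (-0.63 ± 0.29, adjusted p = 0.114). It passed as lower in some alternatives. Among them were voom on the reads (-0.90, adjusted p = 0.0449) and a weight for each library (-0.94, adjusted p = 0.0221).

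Of the 20 tested receptors and factors that regulate P450 genes, 11 rose and 2 fell (median 0.50). Rxra rose by 1.00 ± 0.11 (adjusted p = 0.000180), Pparg, the receptor of adipocyte differentiation, by 1.43 ± 0.19 (adjusted p = 0.000593) and Ppara, the fatty acid receptor that induces family 4 in liver, by 2.18 ± 0.33 (adjusted p = 0.00102). Among 11 tested oxidases of drugs and foreign chemicals other than P450, 10 rose and 1 fell (median 1.34). Maob rose by 1.66 ± 0.19 (adjusted p = 0.000266), Fmo5 by 1.37 ± 0.16 (adjusted p = 0.000307) and Aox1 by 1.06 ± 0.18 (adjusted p = 0.00167).

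Of 3 tested epoxide hydrolases, which open the epoxides that P450 enzymes make, 1 rose and none fell (median 0.77). Ephx2, which acts on fatty acid epoxides, rose by 1.14 ± 0.26 (adjusted p = 0.00878). Ephx3 (0.77 ± 0.35, adjusted p = 0.113) and Ephx1 (-0.20 ± 0.13, adjusted p = 0.245) did not pass. Of 11 tested partners of steroid and oxysterol metabolism, 4 rose and 2 fell (median 0.01). Srd5a3 fell by 0.81 (adjusted p = 0.000422) and the sterol carrier Stard3 by 0.84 (adjusted p = 0.000836), while the mitochondrial protein Tspo rose by 1.00 ± 0.19 (adjusted p = 0.00325).

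Of 10 tested retinoid partners, 2 rose and 3 fell (median 0.09). The retinol dehydrogenase Dhrs9 fell by 3.78 (adjusted p = 0.000288) and the retinal reductase Dhrs3 by 0.85 (adjusted p = 0.00251). Rbp4, the retinol carrier secreted by liver and fat, rose by 2.44 ± 0.29 (adjusted p = 0.000294).

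Some P450 genes share sequence, so their counts are uncertain where reads could be placed on a copy. Windows of 75 bases, the length of a read, were taken from 1 GENCODE M21 transcript of each gene, the longest coding one where there is any. Of those of Cyp4a12a, 40.8% occur in Cyp4a12b as well. The share was 16.7% for Cyp2d9, 16.1% for Cyp4f16, 13.1% for Cyp21a1 and 11.1% for Cyp4a30b. Among the genes that passed the test it was 2.96% for Cyp2e1, 2.30% for Cyp2d22 and 0.942% for Cyp4f17, and 0 for Cyp1b1, Cyp2f2, Cyp2j6, Cyp2j9 and Cyp27a1.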

How the data were processed

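RNA of epididymal white adipose tissue from 4 WT and 4 knockout libraries was made into stranded polyA libraries and read as single ends of 75 bases, per the labels' protocols. Trimmomatic, TopHat2, featureCounts, limma and the build mm9 are named, without versions or settings, per the submitters' processing notes. The authors deposited their values as 1 table of log2 CPM from voom, with 16505 gene symbols as rows. Each value was turned back into reads with the 0.5 read and the total plus 1 that voom uses, and 100% of values came out within 0.01 of a whole read.

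Knockout and WT were compared with limma 3.58.1 in R 4.3.3 (lmFit, eBayes with a mean-variance trend, group as the only term) on the deposited log2 CPM of the 13797 genes with a mean of at least 0. Tests were two-sided with Benjamini-Hochberg adjustment over these genes at 0.05. The 0.5 read added weighs more in small libraries: 0 reads stand at -3.03 log2 CPM in WT 1 but at -6.18 in knockout 3, so log2 changes of low genes can be understated or created by depth. In total 22 alternatives were run, among them other filters, scalings, variance models and leaving out libraries. For Cyp2j13, Cyp4b1, Cyp7b1, Cyp39a1 and Cyp26b1, only 1 of the 8 fits that each left out a library is quoted. Its smaller p does not stand as a separate test. Every P450 gene of the rule was reported, with the 3 genes of smallest p of each of 8 partner lists and 8 partners chosen for their role. The members and lists were chosen with earlier results of these data known.

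Values of genes set side by side used exon lengths of GENCODE M21 (GRCm38). All 39 symbols were matched, 1 by a synonym. RefSeq (GRCm38.p6) gave the miRNA sequences and a promoter window for 29 of the 39, including 6 of the 8 that passed. The labels give replicate numbers but state no pairs, so libraries of equal number were not treated as pairs. Their deviations from the group means correlated at 0.36, 0.79, 0.24 and -0.36, which cannot show whether pairs exist. Libraries of a group correlated across genes at 0.862 to 0.976, and none was counted as a copy.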

Additional observations from a re-analysis of the deposited data

Results flagged for a closer look

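Knockout 3 stood far from the other knockout libraries in Cyp27a1, at 6.48 log2 CPM against 5.67 to 5.81 in knockout 1, 2 and 4. Its gap to the next value was 0.831 of the whole range of the group, just above Dixon's limit for 4 samples. This was the 1 case among 50 groups examined (25 tested genes, WT and knockout), and chance gives about 1 in 20.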

How the results depend on the processing

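The calls of Cyp2e1, Cyp1b1, Cyp4f17, Cyp2d22, Cyp2j9 and Cyp2j6 were kept under all 22 alternatives, and those of Cyp2f2 and Cyp27a1 were not, as given above. The number of P450 genes higher ran from 5 to 9 (5 to 10 with 1 library left out in turn). The number lower was 1, but 2 with no filter, median centring, voom on the reads, the ribosomal RNA class as a covariate or without knockout 3 and 4, 3 with quantile normalization, and 1 to 2 with 1 library left out (2 without knockout 4). Of all tested genes, 1746 were higher without knockout 3 and 4, an alternative added after seeing the data. With the replicate number as a block, 7 P450 genes were higher and 1 lower, and no count moved by over 1.5 times. Not every library correlated best with its own number. Signs turned in genes that did not pass: Cyp2c44 (0.50 with the covariate, 0.62 without knockout 3 and 4, and -0.65 to 0.28 with 1 library left out), Cyp2r1 (0.14), Cyp4f13 (-0.061) and Cyp4f18 (0.12) without knockout 3 and 4, Cyp46a1 (-0.17 with quantile normalization, -0.072 with thinned reads, -0.11 with the covariate), Cyp4f16 (-0.011 with quantile normalization) and Cyp4v3 (0.083 with the covariate, 0.42 without knockout 3 and 4, and -0.58 to 0.050 with 1 library left out). The cause was not tested. Cyp2f2 gave no value with the filter at 2. Genes near 1 CPM rest on about 4 reads in knockout 1, so small changes of low genes were not detectable at this depth.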
